A study of Danio rerio with 25 samples.

Results

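The microRNA hairpins described here are those whose number in the zebrafish (Danio rerio) gene name is 700 or higher, with miR-725, miR-731, miR-735, miR-1388 and miR-2185 set apart by the rule that chose them. The rule reads the name alone, but the members were chosen with earlier results of these data known. It takes 36 of the 346 hairpins of the count table, and 8 other hairpins numbered 700 or higher fall under the numbers it leaves out. Small RNA from the skin of male zebrafish was sequenced in 25 libraries, 5 at each of 5 ages. The fish of 6 and 24 months carry the strain label AB JxTü with no transgene named. The same strain carries Tg(flk:mCherry) at 12 months, Tg(pu.1:GFP) at 36 months and Tg(wt1a:GFP) at 42 months, which are fluorescent reporters driven by promoters known for blood vessel, myeloid and kidney cells. Except between 24 and 6 months, age and transgene cannot be told apart in a comparison of single ages. Tests over all 5 ages share this limit, since each reporter occurs at a single age. The labels do not say that each library is a separate fish, so the p-values measure the spread between libraries, which may be technical.

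A microRNA is cut from a hairpin transcript and guides the silencing complex to messenger RNAs that pair with its seed. Numbers are given in order of naming, so high ones went to later finds, many of them in fish. In zebrafish, miR-722 is known to restrain the migration of neutrophils through the GTPase gene rac2, and miR-2188 to shape intersegmental vessels through the neuropilin gene nrp2a. The miR-3906 hairpin lies within the muscle regulator gene myf5. For most of the others no role is given here. Each value is a count of a whole hairpin, so the arms of a hairpin are not separated, and each is given as a counts-per-million value (CPM) of the library total scaled by edgeR's trimmed mean of M-values (TMM).

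The libraries held 683884 to 5206505 counts, and the shallowest was replicate 2 of 42 months. Depth was lowest at the oldest age: libraries of 42 months averaged 1878600 counts, and the averages of the younger ages were 3255520 to 3786530 counts. Of the hairpins described here, an average of 14.4 per library had at least 10 counts at 42 months, against 16.8 to 18 at the younger ages. The part of this difference in depth in the tests of age was not tested. Replicate 5 of 42 months had the lowest median correlation with the other libraries across hairpins, at 0.936. Hairpins known from the epidermis (miR-203, miR-205 and the miR-200, miR-141 and miR-429 group, 9 hairpins) summed to 54760 to 208209 CPM. None of them was at 0 in all libraries, but neither was any hairpin of the other tissue lists. Presence alone therefore does not check the skin label. The lowest epidermal sum lay above the highest sum of each of those lists, which are given next. The 8 hairpins of skeletal muscle summed to 3097 to 16687 CPM, the 2 of red cells to 1019 to 6035 CPM, the 4 of leukocytes to 1964 to 4539 CPM, the 13 of neural tissue to 97.7 to 1655 CPM and the single liver hairpin, miR-122, to 19.4 to 1826 CPM. The highest neural sum was that of replicate 5 of 42 months, and the highest red cell and liver sums were those of replicate 3 of 24 months.

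By name, 35 of the 36 hairpins were found among RefSeq genes of the assembly GRCz12tu, the exception being miR-2184. Of these, 23 overlap a protein-coding gene, 5 overlap only long non-coding RNA genes, 1 overlaps an rRNA entry and 6 overlap no other gene. Overlap was judged by position alone, on either strand and whether full or partial. Words such as host, in and within mean such an overlap throughout. Several lie in or beside genes of light detection. The miR-726 hairpin lies between opn1sw2 and opn1lw1, the blue and red cone opsins, and miR-729 lies beside opn1sw1, the ultraviolet cone opsin. Neither overlaps an opsin gene, and miR-726 overlaps a long non-coding RNA gene. The hairpins miR-727 and miR-728 both lie within tmtopsb, an opsin of the teleost multiple tissue type. Muscle genes host miR-736 (myh7, a myosin heavy chain) and miR-2192 (pvalb3, a parvalbumin). The miR-2188 hairpin lies in ank1a, the ankyrin gene known from red cells, miR-1788 in the transcription factor gene fev, miR-722 in the glucagon receptor gene gcgrb and miR-1306 in dgcr8, whose protein takes part in the cutting of microRNA hairpins. The miR-738 hairpin lies within an rRNA entry, and the entry of miR-733 has the other name vtrna4, that of a vault RNA. Whether these 2 rows hold fragments of such RNAs was not tested. None of the 36 names has a second copy in the table.

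The hairpins together took a median of 3.30% of a library's counts (lowest 1.66%, highest 5.21%), and a single one, miR-2184, took most of that. It held 85.4% to 97.4% of their counts in each library and averaged 30117 ± 8192 CPM (lowest 16979, median 32423 and highest 47236), which ranked 12 of 346 hairpins by mean level. Its libraries differed by 2.78-fold between the lowest and the highest, and its coefficient of variation (CV, SD over mean) was 27.2%. The other 18 hairpins with enough counts to test, and the untested ones, summed to a mean of 1853 CPM. A hairpin was tested when it passed edgeR's filter on low counts (minimum count 10), which 19 of the 36 did, against 239 of the 310 other hairpins. Among those tested, 7 averaged at least 100 CPM, 6 averaged 10 to 100 CPM and 6 averaged under 10 CPM. Their median level was 20.3 CPM, and over all 258 tested hairpins it was 347 CPM.

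**Figure D1:**
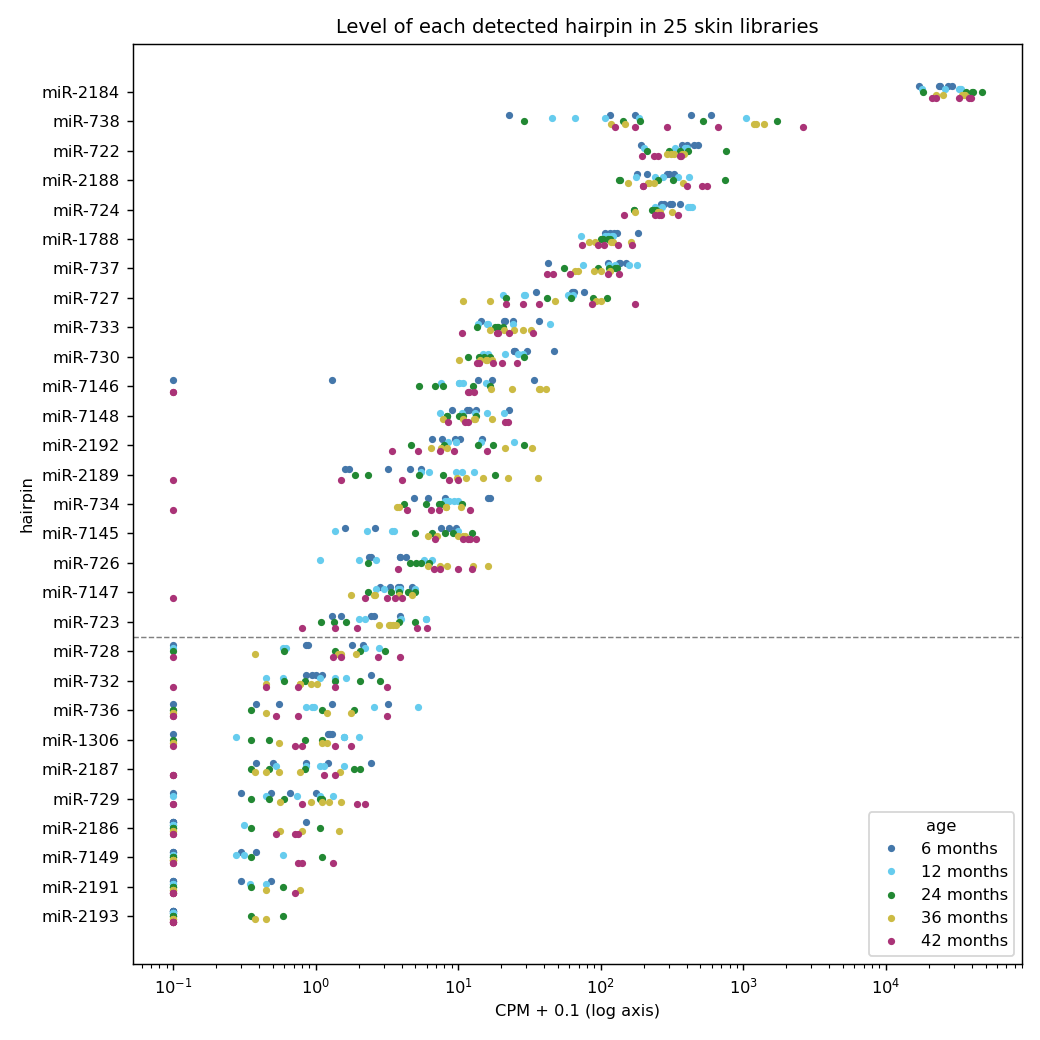
Level of each hairpin detected in any library, in CPM on a log axis, with 1 point per library. The dashed line separates the 19 tested hairpins from those below the filter, and miR-2184, at 16979 to 47236 CPM, stands above the other hairpins shown in every library.

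Behind miR-2184 came 6 hairpins that averaged at least 100 CPM. The mean of miR-738 was 534 ± 654 CPM (SD over 25 libraries), but its libraries ran over a 116-fold range (lowest 22.5, median 184 and highest 2625 CPM). Next, miR-722 averaged 349 ± 118 CPM (lowest 192, median 359 and highest 759.8), and miR-2188 averaged 296 ± 144 CPM (lowest 134, median 249.7 and highest 739). The hairpin of the copine gene cpne5b, miR-724, averaged 274 ± 76.2 CPM (lowest 146, median 259 and highest 437). The next were miR-1788 at 115 ± 26.1 CPM (lowest 72.4, median 113 and highest 182) and miR-737, hosted by the clathrin adaptor gene ap2m1b, at 103 ± 37.9 CPM (lowest 41.7, median 113 and highest 178). The ranges of neighbours in this order overlap, so the order from miR-738 to miR-737 differs between libraries. The steadiest of them was miR-1788, with a CV of 22.7%.

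The tmtopsb hairpin miR-727 averaged 57.7 ± 37.3 CPM (lowest 10.7, median 58.9 and highest 174), a 16.2-fold range. Its neighbour in the same gene, miR-728, averaged 1.32 ± 1.02 CPM and was not tested. Between 10 and 100 CPM also lay miR-733 at 21.9 ± 7.87 CPM (lowest 10.5, median 20.6 and highest 44.1), miR-730 at 20.3 ± 8.04 CPM (lowest 10.1, median 17.2 and highest 46.5), miR-7146 at 14.4 ± 11.8 CPM (lowest 0, median 11.8 and highest 41.2) and miR-7148 at 12.8 ± 4.62 CPM (lowest 7.33, median 11.6 and highest 22.4). The remaining tested hairpins, miR-2192, miR-2189, miR-734, miR-7145, miR-726, miR-7147 and miR-723, averaged 2.95 to 12.1 CPM. At that level a library holds few reads of a hairpin: 3 counts correspond to 0.523 to 5.00 CPM depending on the library.

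Of the 17 untested hairpins, 10 had at least 1 count somewhere and 499 counts in all. The tested hairpins nearest to the filter were miR-723, miR-7147 and miR-726, with mean counts of 8.72, 10.6 and 18.2 per library. The untested ones nearest to it were miR-728, miR-736 and miR-732, with mean counts of 4.12, 3.32 and 3.24. The myosin gene myh7 hosts miR-736, which averaged 1.01 ± 1.26 CPM, and miR-732 averaged 1.06 ± 0.753 CPM. The other 7 with counts were miR-1306, miR-2187, miR-729, miR-2186, miR-7149, miR-2191 and miR-2193, at means of 0.0545 to 0.812 CPM. The last 7 hairpins were at 0 in all 25 libraries: miR-740, miR-2194, miR-2195, miR-2196, miR-2197, miR-2198 and miR-3906. That is 0 of 78727466 counts, which allows a level of up to 0.0381 CPM over all libraries (3 counts of the total), and this limit covers counting error only. Of the 310 other hairpins, 31 were at 0 throughout. A library showed 17 to 27 of the 36 hairpins with at least 1 count (median 25), and the 17 were in the shallowest library.

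Age was tested with edgeR's quasi-likelihood F test on all hairpins together, with p-values adjusted by the Benjamini-Hochberg method over the 258 tested and a threshold of 0.05. For any difference among the 5 ages, 4 of the 19 hairpins (21.1%) passed, which were miR-726, miR-2189, miR-730 and miR-724, while 38.4% of all 258 tested hairpins passed. For a linear slope over age, 3 of 19 (15.8%) passed, while 25.2% of all tested did. Of these, 2 rose, miR-726 and miR-7145, and 12% of all tested hairpins rose. The 1 that fell was miR-730, and 13.2% of all tested hairpins fell. The median slope of the 19 was 0.012 log2 units per 12 months and that of all tested hairpins was -0.0063, with 11 of the 19 slopes above 0 and 8 below. In all, 5 of the 19 hairpins passed at least 1 of the 6 tests. The matching share of all 258 was not counted, but it cannot lie below the 38.4% of the test for any difference.

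**Figure D2:**
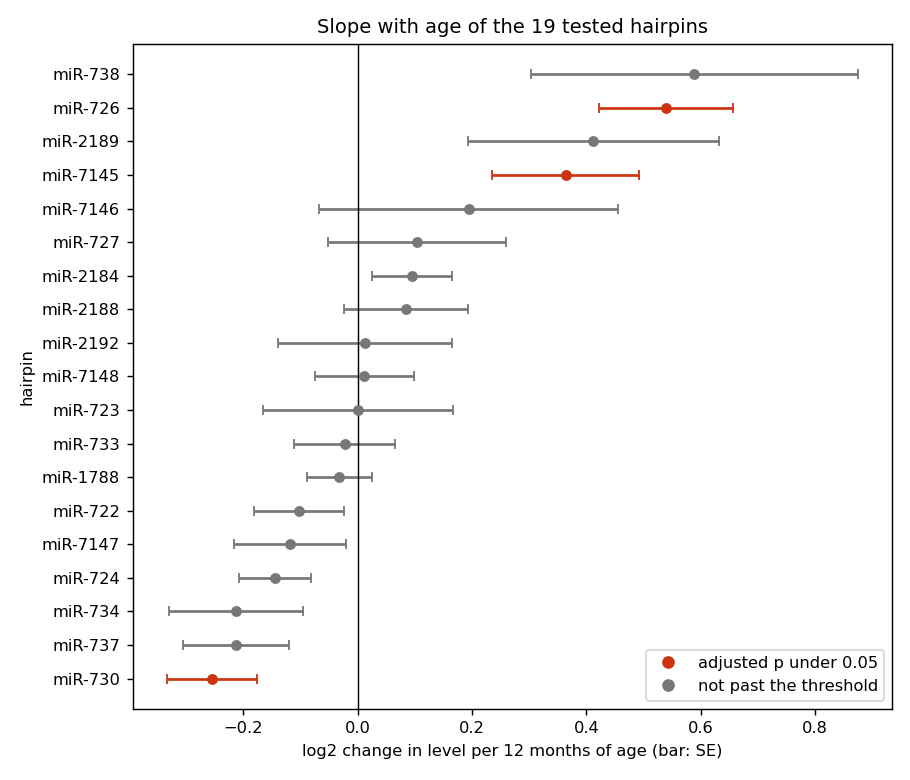
Slope of level on age for the 19 tested hairpins, in log2 units per 12 months, with bars of 1 SE from edgeR's fit. Red points passed the adjusted threshold (miR-726 and miR-7145 above 0, miR-730 below 0); miR-738 had a slope of 0.59 with a wide error and did not pass.

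The hairpin between the opsin genes, miR-726, rose with age, from a low level. Its libraries held 3.78, 4.21, 2.33, 2.25 and 3.80 CPM at 6 months, 0.978, 2.54, 1.90, 5.63 and 6.45 CPM at 12 months and 4.99, 6.09, 5.33, 2.24 and 4.47 CPM at 24 months. They held 16.1, 12.7, 6.02, 7.37 and 8.19 CPM at 36 months and 9.77, 6.67, 7.35, 3.66 and 12.5 CPM at 42 months. All 5 libraries of 36 months lay above all 5 of 6 months, while at 42 months 1 library lay within the range of 6 months. The slope was 0.54 ± 0.12 log2 units per 12 months (SE, adjusted p = 0.00106), and the test for any age difference gave an adjusted p of 0.00799. Both kept their call under every alternative that could be run on it. With a term for carrying any transgene, the slope was 0.49 (adjusted p = 0.0189), and without the libraries of 42 months it was 0.65 (adjusted p = 0.00192). That term pools the different reporters, so it cannot separate each of them from age.

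Between single ages, miR-726 averaged 10.1 ± 4.19 CPM at 36 months and 3.27 ± 0.913 CPM at 6 months (SD, n = 5 each), a log2 fold change of 1.61 ± 0.41 (SE, edgeR, adjusted p = 0.00466). At 42 months it averaged 7.98 ± 3.32 CPM, 1.29 ± 0.43 log2 units above 6 months (adjusted p = 0.0269). At 24 months, where no transgene is named, it averaged 4.62 ± 1.46 CPM, 0.48 ± 0.42 log2 units above 6 months. That difference did not pass (edgeR, adjusted p = 0.461), and the ranges overlap. The call at 42 months was lost without replicate 3 or 4 of 6 months (adjusted p = 0.0616 and 0.0664) and without replicate 1 or 5 of 42 months (adjusted p = 0.0585 and 0.0916). The library with the highest neural sum, replicate 5 of 42 months, was also the highest of its age for miR-726, and the neural hairpins ran from 241 to 487 CPM at 36 months, against 111 to 236 CPM at 6 months. At 12 months, where miR-726 was near its level of 6 months, the neural sum was 253 to 689.7 CPM, and at 42 months 4 of 5 libraries were at 97.7 to 243 CPM. Between miR-726 and the neural sum over the 25 libraries, Pearson's r was 0.28 and Spearman's rho was 0.22 (r 0.26 and rho 0.17 on age-centred values), a description with no test. Over age, 2 of the 13 neural hairpins rose and none fell. With the skeletal muscle sum, r was -0.40 and rho was -0.45 (r -0.08 and rho -0.03 on age-centred values). The muscle sum averaged 8746, 11273, 10075, 6048 and 8056 CPM at 6, 12, 24, 36 and 42 months. Of the 8 muscle hairpins, 4 fell over age and none rose. The part of neural or muscle RNA in the difference was not tested, and in such bulk samples fewer cells of a type and less RNA per cell cannot be told apart.

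The hairpin miR-730, whose neighbour in the assembly is the serotonin receptor gene htr2cl1, fell with age. Its libraries held 46.5, 24.7, 24.5, 25.0 and 30.4 CPM at 6 months and 28.4, 26.0, 21.3, 14.7 and 16.0 CPM at 12 months. They held 14.0, 11.7, 16.5, 15.2 and 29.0 CPM at 24 months, 10.1, 14.0, 15.8, 15.4 and 17.2 CPM at 36 months and 17.4, 13.3, 20.3, 25.6 and 13.8 CPM at 42 months. All 5 libraries of 36 months lay below all 5 of 6 months, and at 24 and 42 months 1 library each lay within the range of 6 months. The slope was -0.25 ± 0.08 log2 units per 12 months (SE, adjusted p = 0.0207) and the test for any age difference gave an adjusted p of 0.0223. A single library of 6 months, replicate 1, lay at 46.5 CPM, and without it the slope was -0.20 (adjusted p = 0.0564) and the test for any difference gave 0.0951. The call for any difference was also lost without replicate 5 of 6 months (adjusted p = 0.0507). With a term for carrying a transgene the slope was -0.24 (adjusted p = 0.105).

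At 36 months miR-730 averaged 14.5 ± 2.73 CPM and at 6 months 30.2 ± 9.42 CPM (SD, n = 5 each), a log2 fold change of -1.06 ± 0.27 (edgeR, adjusted p = 0.00466), a call that held without any 1 library and under every other setting that tested it. At 42 months it averaged 18.1 ± 5.09 CPM, -0.72 ± 0.27 log2 units from 6 months, which missed the threshold (adjusted p = 0.0552). Of the 9 epidermal hairpins, 5 fell over age and none rose, and their summed level ran from 68606 to 110326 CPM at 36 months, against 83638 to 122133 CPM at 6 months. The sum did not fall steadily: it averaged 111721, 100634, 86359, 89867 and 106130.0 CPM at 6, 12, 24, 36 and 42 months, and its libraries of 42 months ran from 61343 to 208209 CPM. Between miR-730 and the epidermal sum over the 25 libraries, r was 0.40 and rho was 0.54 (r 0.28 and rho 0.31 on age-centred values), a description with no test (Pearson's r and Spearman's rho). With the neural sum, r was -0.43 and rho was -0.37 (r -0.38 and rho -0.46 on age-centred values). The part of epidermal or neural RNA in the fall of miR-730 was not tested.

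**Figure D3:**
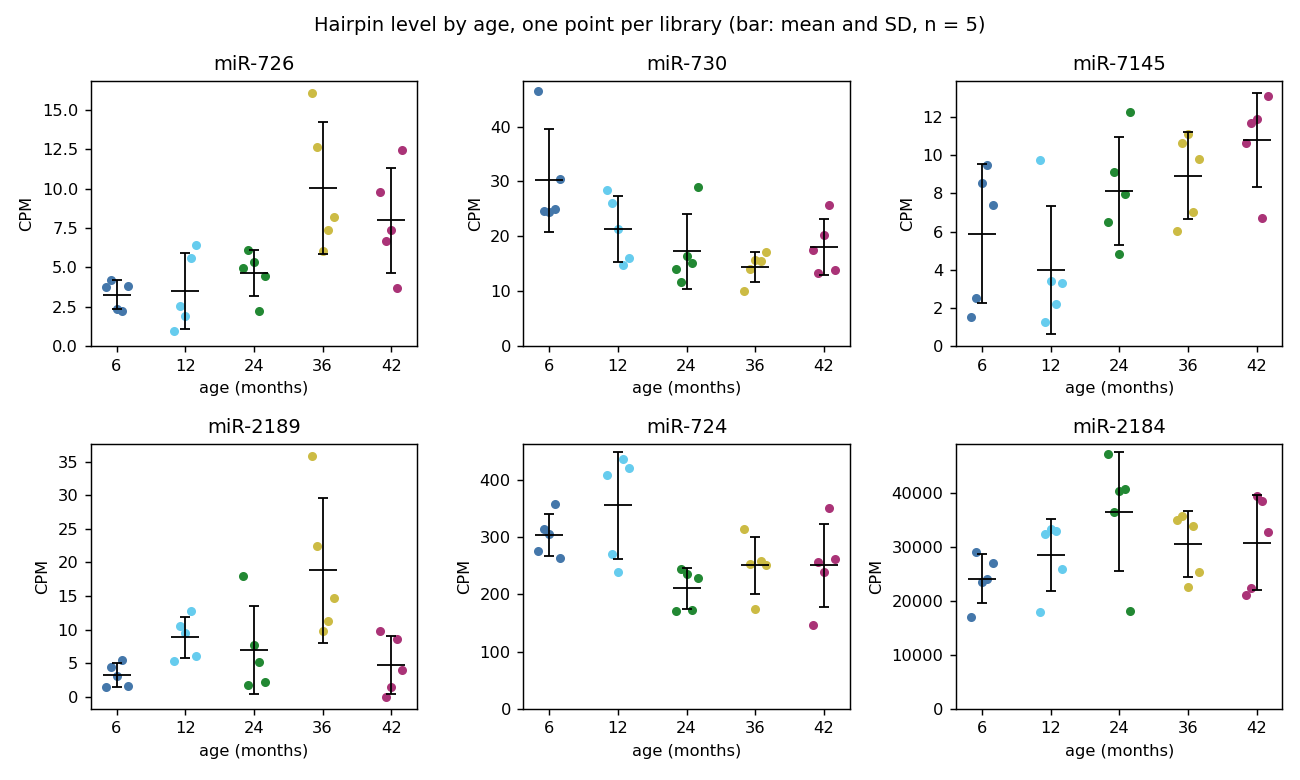
Level in CPM of the 5 hairpins that passed at least 1 age test, and of miR-2184, by age in months, with 1 point per library and a bar for the mean and SD of 5 libraries. miR-726 and miR-2189 lie highest at 36 months, and miR-730 lies highest at 6 months.

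The hairpin within the non-coding gene linc.sox4a, miR-7145, rose in the trend alone. Its libraries held 1.51, 2.52, 8.54, 9.47 and 7.41 CPM at 6 months and 9.78, 1.27, 3.42, 2.20 and 3.31 CPM at 12 months. They held 6.48, 9.13, 4.85, 7.95 and 12.3 CPM at 24 months, 6.03, 10.6, 11.1, 7.02 and 9.83 CPM at 36 months and 10.6, 11.7, 11.9, 6.72 and 13.1 CPM at 42 months. The libraries of 6 and 12 months spread widely, and each older age lay partly within their range. The slope of 0.36 ± 0.13 log2 units per 12 months (SE) lay near the threshold (edgeR, adjusted p = 0.0422). The call was lost when any 1 of 11 libraries was left out, with adjusted p from 0.0508 to 0.0782: replicates 1 and 2 of 6 months, replicates 2, 4 and 5 of 12 months, replicates 2, 3 and 5 of 36 months, and replicates 2, 3 and 5 of 42 months. The test for any difference among ages did not pass (adjusted p = 0.0799).

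The level of miR-2189, a hairpin that overlaps no other gene, was raised at 36 months. Its libraries held 35.9, 22.4, 9.73, 11.2 and 14.7 CPM at 36 months and 1.51, 4.49, 3.11, 5.41 and 1.60 CPM at 6 months, and the groups do not overlap. The means were 18.8 ± 10.7 CPM at 36 months and 3.22 ± 1.73 CPM at 6 months (SD, n = 5 each), a log2 fold change of 2.52 ± 0.61 (SE, edgeR, adjusted p = 0.00380). At 12 months it averaged 8.86 ± 3.08 CPM, at 24 months 6.99 ± 6.59 CPM and at 42 months 4.73 ± 4.30 CPM, and none of these differed from 6 months at the threshold. Its slope did not pass (0.41 ± 0.22, adjusted p = 0.178). The test for any age difference (adjusted p = 0.0142) was lost without replicate 1 of 36 months, the highest library at 35.9 CPM (adjusted p = 0.0593), while the call between 36 and 6 months held without it (log2 2.16, adjusted p = 0.0141). Fish of 36 months are the ones that carry the pu.1 reporter. With the leukocyte sum (3151 to 4357 CPM at 36 months, against 2955 to 4539 CPM at 6 months), r was 0.44 and rho was 0.45 (r 0.73 and rho 0.76 on age-centred values). With the epidermal sum, r was -0.58 and rho was -0.44 (r -0.69 and rho -0.59 on age-centred values). With the neural sum, r was 0.26 and rho was 0.48 (r -0.01 and rho 0.06 on age-centred values). These are Pearson's r and Spearman's rho over the 25 libraries, given as descriptions. Without the 2 libraries farthest from the median of miR-2189, r was 0.39 (leukocyte), -0.36 (epidermal) and 0.22 (neural). The part of such RNA in the difference was not tested.

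For miR-724 the ages differed without a common direction. It averaged 304 ± 36.9, 355 ± 92.9, 210.4 ± 36.1, 251 ± 49.8 and 251 ± 72.7 CPM at 6, 12, 24, 36 and 42 months (SD, n = 5 each), highest at 12 months and lowest at 24 months. The test for any difference gave an adjusted p of 0.0324, and the slope did not pass (-0.14 ± 0.06, adjusted p = 0.0901). The call for any difference was lost when any 1 of 12 libraries was left out, with adjusted p from 0.0651 to 0.112: replicates 1 and 3 of 6 months, 1 and 4 of 12 months, 1, 4 and 5 of 24 months, 3 and 4 of 36 months, and 2, 3 and 5 of 42 months.

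Fish of 24 and 6 months share the strain label, so that comparison is free of a named transgene. Of the 19 hairpins 1 passed, miR-730, and it was lower, while 25.2% of all tested hairpins passed, 8.91% higher and 16.3% lower. It averaged 17.3 ± 6.81 CPM at 24 months and 30.2 ± 9.42 CPM at 6 months (SD, n = 5 each), a log2 fold change of -0.81 ± 0.27 (SE, edgeR, adjusted p = 0.0277). The call was lost without replicate 1 of 6 months (log2 -0.56, adjusted p = 0.146) or replicate 5 of 6 months (adjusted p = 0.0547). In 6 of 10 other settings, DESeq2's size factors and a fit of these 2 ages alone among them, it was lost as well. It was also lost without replicate 1, 2 or 4 of 24 months (adjusted p = 0.110, 0.0803 and 0.0635).

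The abundant hairpin miR-2184 stood near the threshold in the same comparison. Its libraries held 47236, 36441, 40351, 40783 and 18068 CPM at 24 months and 16979, 29108, 23458, 24077 and 27081 CPM at 6 months, and the groups overlap. The means were 36576 ± 11047 CPM at 24 months and 24141 ± 4612 CPM at 6 months (SD, n = 5 each), a log2 fold change of 0.60 ± 0.24 (SE, edgeR, adjusted p = 0.0614). It passed in 7 of 11 other settings, and in 4 of 25 fits that each left out 1 library. The epidermal sum averaged 86359 ± 27992 CPM at 24 months and 111721 ± 16178 CPM at 6 months (SD). It was 54760 CPM in replicate 1 of 24 months, the highest of that age for miR-2184, and 127108 CPM in replicate 5, the lowest. The part of epidermal RNA in the difference was not tested. In miR-724 all 5 libraries of 24 months (171, 245, 236, 172 and 228 CPM) lay below all 5 of 6 months (276, 314, 305, 359 and 264 CPM), with a log2 fold change of -0.53 ± 0.20 that missed the threshold (adjusted p = 0.0574).

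Between 12 and 6 months, 0 of the 19 hairpins passed, while 3.88% of all tested did, 1.16% higher and 2.71% lower. At an unadjusted p under 0.05 there was 1 of the 19, against 69 of all 258 tested hairpins (edgeR). It was miR-2189 (8.86 ± 3.08 CPM at 12 months and 3.22 ± 1.73 CPM at 6 months, adjusted p = 0.151, edgeR). At the adjusted threshold, DESeq2 and limma-voom also called 0. Between 36 and 6 months, 3 of the 19 passed, miR-2189 and miR-726 higher and miR-730 lower, while 25.2% of all tested passed, 10.9% higher and 14.3% lower. Between 42 and 6 months, 1 passed, miR-726, higher, while 24% of all tested passed, 11.6% higher and 12.4% lower. These comparisons share the 5 libraries of 6 months, so they are not independent of each other.

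The hairpins with known roles in blood cells and vessels did not pass any test of age. Of them, miR-722 averaged 379 ± 113, 342 ± 84.1, 408 ± 209.6, 336 ± 40.2 and 280.4 ± 76.5 CPM at 6, 12, 24, 36 and 42 months (SD, n = 5 each), and its slope was -0.10 ± 0.08 (SE, edgeR, adjusted p = 0.370). Means of miR-2188 were 262 ± 62.9, 291 ± 92.0, 316 ± 249, 239 ± 82.3 and 373 ± 170.1 CPM at 6, 12, 24, 36 and 42 months, with a slope of 0.08 ± 0.11 (SE, edgeR, adjusted p = 0.632). For both, 1 library of 24 months, replicate 3, was the highest of all 25, at 759.8 CPM for miR-722 and 739 CPM for miR-2188. It is also the library with the highest red cell and liver sums.

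Over the whole age range, miR-2184 averaged 24141 ± 4612, 28545 ± 6657, 36576 ± 11047, 30511 ± 6155 and 30815 ± 8744 CPM at 6, 12, 24, 36 and 42 months, with a slope of 0.09 ± 0.07 (SE, edgeR, adjusted p = 0.348). The fev hairpin miR-1788 averaged 132 ± 29.4, 107 ± 20.0, 106 ± 6.61, 115 ± 31.6 and 115 ± 35.4 CPM at 6, 12, 24, 36 and 42 months, a slope of -0.03 ± 0.06 (adjusted p = 0.748). The ap2m1b hairpin miR-737 averaged 115 ± 42.9, 129.6 ± 40.2, 103 ± 29.9, 87.8 ± 20.9 and 78.7 ± 41.7 CPM at 6, 12, 24, 36 and 42 months, and its slope of -0.21 ± 0.09 missed the threshold (adjusted p = 0.0879). The slopes of miR-733 and miR-7148 were -0.02 ± 0.09 and 0.01 ± 0.09 log2 units per 12 months (SE). Of the 14 tested hairpins that passed no test, the lowest adjusted p in the trend was that of miR-737.

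Levels of many of these hairpins varied widely between libraries. The median CV over 25 libraries was 47.4% for the 19 and 29.2% over all 258 tested hairpins, and 16 of the 19 lay above 29.2%. Their median level is also lower, as given above, and the part of depth in this spread was not tested. The hairpin within the rRNA entry, miR-738, had a CV of 123%. It held 589, 429.9, 174, 22.5 and 117 CPM at 6 months, 184, 66.2, 1042, 45.3 and 107 CPM at 12 months and 188, 28.7, 1734, 144 and 519.5 CPM at 24 months. At 36 months it held 1228, 118, 147, 1387 and 1196 CPM and at 42 months 173, 2625, 293, 663 and 127 CPM. Each age has libraries below 200 CPM and libraries above 500 CPM, and its slope of 0.59 ± 0.29 did not pass (edgeR, adjusted p = 0.132).

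The hairpin in the cyclin gene ccnk, miR-7146, was at 0 in 3 libraries and over 10 CPM in others of the same ages. It held 0, 17.1, 13.6, 34.0 and 1.20 CPM at 6 months, 15.6, 7.40, 10.6, 10.03 and 9.93 CPM at 12 months and 6.73, 16.5, 7.75, 5.22 and 12.7 CPM at 24 months. At 36 months it held 23.8, 37.3, 41.2, 36.5 and 16.9 CPM and at 42 months 0, 11.7, 0, 12.8 and 11.8 CPM. The 3 libraries at 0 allow levels of up to 1.13, 1.27 and 1.05 CPM (3 counts each), below every other library of their ages, the nearest being at 1.20 CPM at 6 months. Its ages did not differ at the threshold (edgeR, any age difference, adjusted p = 0.162). The tmtopsb hairpin miR-727 held 10.7, 93.0, 47.3, 99.6 and 16.7 CPM at 36 months and 174, 28.3, 87.2, 21.4 and 36.7 CPM at 42 months, against 63.1, 64.5, 63.7, 76.2 and 35.2 CPM at 6 months, so the older ages spread on both sides of the youngest.

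**Figure D4:**
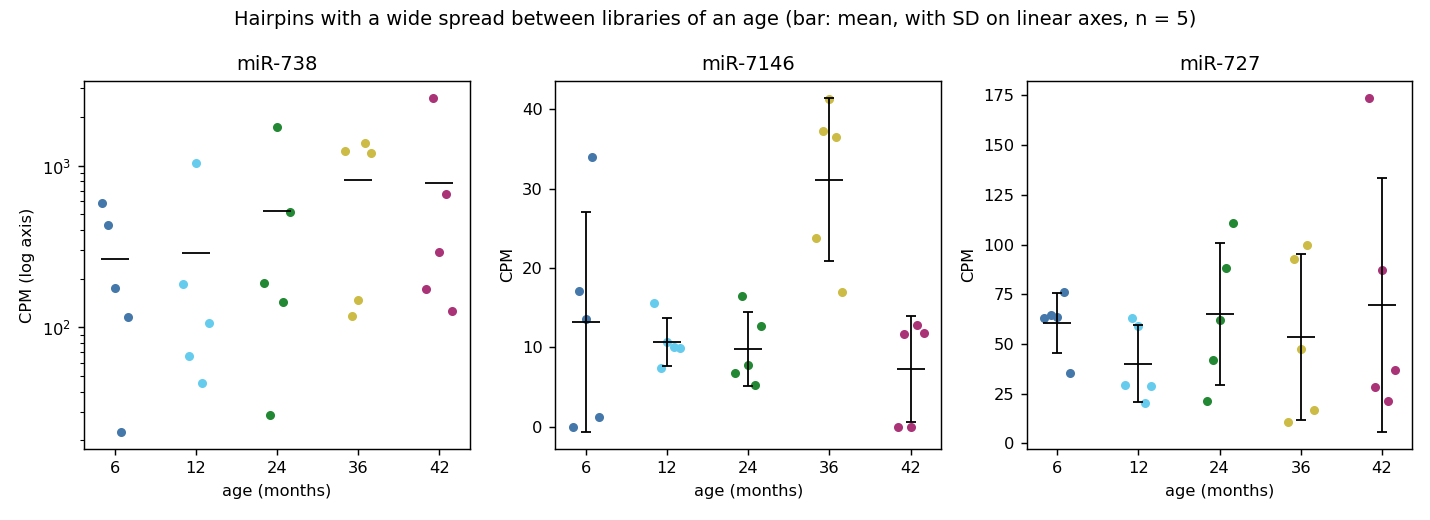
Level in CPM of miR-738 (log axis), miR-7146 and miR-727 by age in months, with 1 point per library and a bar for the mean of 5 libraries (with SD for miR-7146 and miR-727). Libraries of 1 age differ by over an order of magnitude for miR-738, and miR-7146 is at 0 in 1 library of 6 months and 2 libraries of 42 months.

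Relations between hairpins are given as descriptions over 25 libraries, on log2(CPM + 1), with no test. The libraries share their ages, transgenes and depths, and values within 1 library are scaled by the same total. Pearson's r and Spearman's rho are given, then r on values centred within ages and r without the 2 libraries farthest from the median of the first-named measure. Of 171 pairs of tested hairpins, 7 had a Spearman's rho beyond 0.5 in size. The pair with the highest was miR-722 and miR-737: r was 0.72 and rho was 0.77, with an r of 0.73 on age-centred values and 0.77 without the 2 farthest libraries. For miR-733 and miR-738, r was 0.67 and rho was 0.65, with an r of 0.74 on age-centred values and 0.69 without the 2 farthest libraries. The hairpins that rose and fell with age, miR-726 and miR-730, ran opposite to each other: r was -0.64 and rho was -0.64, with an r of -0.51 on age-centred values and -0.54 without the 2 farthest libraries. For miR-722 and miR-2184, r was 0.64 and rho was 0.52, with an r of 0.77 on age-centred values and 0.56 without the 2 farthest libraries. The remaining pairs, with values in the same order, were miR-737 with miR-2192 (0.50, 0.58, 0.48 and 0.39) and miR-2189 with miR-2192 (0.64, 0.51, 0.66 and 0.51). The last was miR-722 with miR-7145 (-0.27, -0.51, -0.23 and -0.52).

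Set against the summed levels of cell type hairpins, 8 of 114 combinations had a rho beyond 0.5 in size. The largest in size was that of miR-2184 against the epidermal sum: r was -0.74 and rho was -0.78, with an r of -0.71 on age-centred values and -0.72 without the 2 farthest libraries. The ank1a hairpin miR-2188 went with the red cell hairpins miR-144 and miR-451: r was 0.69 and rho was 0.55, with an r of 0.70 on age-centred values and 0.52 without the 2 farthest libraries. Levels of miR-722 went with those of the leukocyte hairpins miR-142, miR-150 and miR-223: r was 0.53 and rho was 0.55, with an r of 0.68 on age-centred values and 0.55 without the 2 farthest libraries. Also beyond 0.5 were miR-730 and miR-2192 with the epidermal sum (rho 0.54 and -0.53) and miR-7148 with the muscle sum (rho -0.54). The remaining ones were miR-723 and miR-727 with the neural sum (rho 0.53 and -0.53). All these values are shares of 1 library total, and the epidermal sum alone reached 208209 CPM. The part of that shared total in the relation of miR-2184 was not tested.

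**Figure D5:**
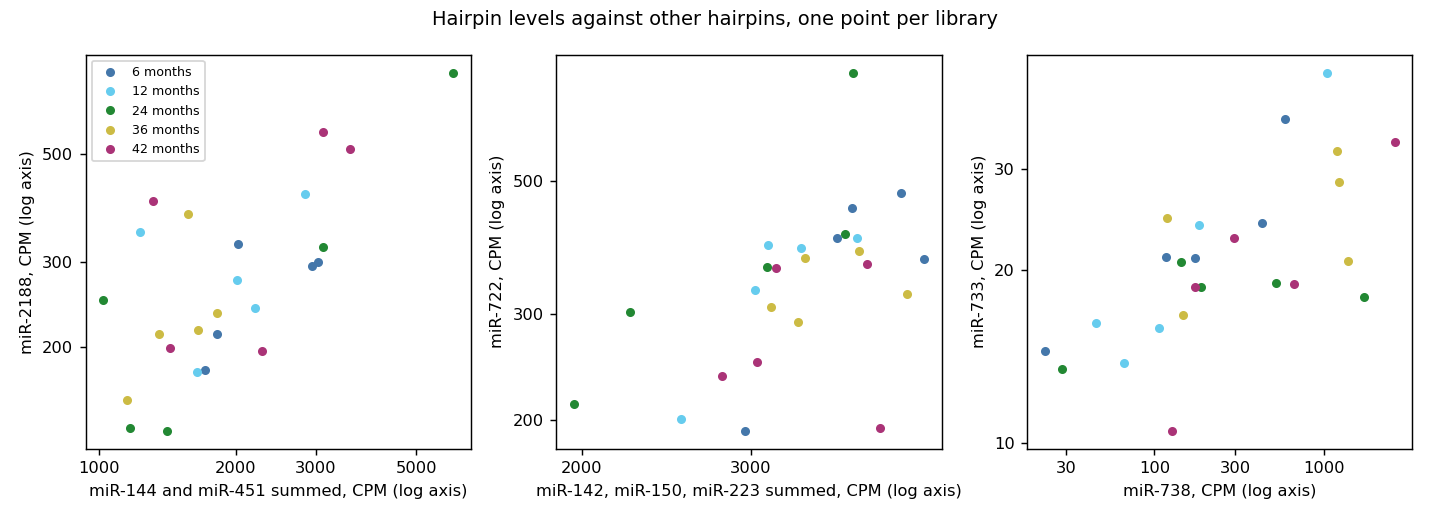
Levels in CPM on log axes, 1 point per library coloured by age: miR-2188 against summed red cell hairpins, miR-722 against summed leukocyte hairpins, and miR-733 against miR-738. The Pearson's r of log2(CPM + 1) were 0.69, 0.53 and 0.67, and 1 library of 24 months lies at the top of the first 2 panels.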

How the data were processed

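Small RNA of male zebrafish skin was sequenced from total RNA with Illumina's TruSeq small RNA kit, per the labels' protocols, in 25 libraries (5 ages, 5 each). The submitters' processing notes list BWA 0.7.12-r1039, SAMtools 1.3.1-9, Trimmomatic 0.36 and CASAVA 1.8.4, with no role stated. The build, the way of counting and the treatment of reads matching several hairpins are details not given in the sources used here. As deposited by the authors, 1 table holds raw counts per hairpin, and every column was mapped to its sample by name. Library totals were 683884 to 5206505 counts.

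Counts were scaled by TMM and tested in R 4.3.3 with edgeR 4.0.16 (filterByExpr by age with a minimum count of 10, glmQLFit, glmQLFTest) over all 346 hairpins. There were 6 tests: any age difference, slope on age, and 12, 24, 36 and 42 months each against 6 months, with Benjamini-Hochberg adjustment over the 258 tested and a threshold of 0.05. SE is the log2 change over the root of F. Alternatives used DESeq2 1.42.0, limma 3.58.1 (voom), other scalings and filters, a transgene term, and leaving out each library. The fit was also run on simulated counts, for the slope and for 42 against 6 months only. The simulation gave all hairpins the same spread setting, so it cannot show how the calls behave for hairpins of wider spread.

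Named with values are the 12 hairpins of highest mean CPM, those past the threshold, those at 0 throughout, and the 3 on each side of the filter. The members and lists were chosen with earlier results of these data known. Names and neighbouring genes come from RefSeq's GRCz12tu gene table. No pair of libraries of 1 age agreed within counting noise (50 pairs, smallest chi-square per degree of freedom 105).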

Additional observations from a re-analysis of the deposited data

Results flagged for a closer look

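In 6 of 95 sets of 5 libraries (19 hairpins at 5 ages), the highest library stood apart from the other 4 by Dixon's criterion. No lowest library did, and the 6 lie in 6 different libraries. For normally distributed values, chance flags about 1 in 20 sets, counting both the highest and the lowest. That rate need not hold for CPM values, which can be skewed (miR-738 had a mean of 534 and a median of 184 CPM). The 6 sets therefore cannot be judged against it.

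Of these, 3 concern miR-738, the hairpin within an rRNA entry. It was at 1042 CPM in replicate 3 of 12 months, with the other 4 at 45.3 to 184 CPM. It was at 1734 CPM in replicate 3 of 24 months, with the others at 28.7 to 519.5 CPM. It was at 2625 CPM in replicate 2 of 42 months, the shallowest library, with the others at 127 to 663 CPM. These values rest on 2740, 3578 and 1574 counts.

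For miR-730, replicate 1 of 6 months was at 46.5 CPM (123 counts), with the others at 24.5 to 30.4 CPM, and replicate 5 of 24 months was at 29.0 CPM (78 counts), with the others at 11.7 to 16.5 CPM. The first raises the mean of the age that all older ages were set against, and the second narrows the difference between 24 and 6 months. For miR-7145, replicate 1 of 12 months was at 9.78 CPM (20 counts), with the others at 1.27 to 3.42 CPM.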

How the results depend on the processing

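Of the 12 called results of single hairpins, the 4 for any age difference have no direction. Among the others, no direction turned round in any setting. The calls between 36 and 6 months of miR-2189, miR-726 and miR-730, and those of miR-726 for the slope and for any age difference, held wherever the hairpin was tested. A filter at a mean of 100 CPM tests 7 hairpins and none of the low ones that passed, and it left 0 calls for any age difference, the slope, 36 against 6 months and 42 against 6 months. For any age difference, 2 of the 19 passed with copies summed by name. Without replicates 2 and 5 of 42 months, a setting chosen after seeing the data, 2 of 20 tested passed. That setting left 1 for the slope and 0 for 42 against 6 months. Between 24 and 6 months, 0 passed with library size alone, 2 with DESeq2 and 2 with limma-voom. Leaving out 1 library gave 2 to 4 calls for any age difference, the 2 without replicate 1 of 6 months, and 2 to 5 for the slope, the 5 without replicate 4 of 42 months. It gave 0 to 2 between 24 and 6 months (0 without replicate 1 or 5 of 6 months or replicate 1 or 4 of 24 months; 2 without replicate 1, 3 or 5 of 12 months, 5 of 24 months, or 1 or 4 of 42 months). It gave 3 to 3 between 36 and 6 months, 0 to 0 between 12 and 6 months, and 0 to 2 between 42 and 6 months (0 without replicate 4 of 6 months or replicate 1 or 5 of 42 months; 2 without replicate 5 of 12 months, 5 of 24 months or 4 of 42 months). The matching shares of all tested hairpins were not counted in these other settings. Whether calls moved in these hairpins alone or in the whole table is therefore not known, and the cause was not tested.

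Among single hairpins, the slope of miR-730 missed the threshold with a transgene term and without replicates 2 and 5 of 42 months (adjusted p = 0.0861). Its call between 24 and 6 months was lost in 6 of 10 other settings, with adjusted p of up to 0.140. The slope of miR-7145 was lost with upper-quartile scaling (adjusted p = 0.0987), no filter (0.0531), without 42 months (0.143) and without the 2 libraries of 42 months (0.0861). Without those 2, the 42 against 6 months call of miR-726 was lost (adjusted p = 0.110). The call of miR-724 was lost in 4 of 10 other settings and that of miR-730 for any difference in 3 of 9. Other scalings moved the median log2 change of all hairpins by over 0.1 in 2 cases, 0.12 with upper-quartile scaling between 24 and 6 months and 0.15 with library size alone between 12 and 6 months. No paired analysis was possible because the replicate numbers follow only the order of the samples and link no samples across ages. Hairpins under about 5 CPM rest on few reads in the shallowest library, where 3 counts are 5.00 CPM.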

Other observations

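A pair of neighbouring hairpins in RefSeq's GRCz12tu table differed widely in level. The hairpin miR-7149, within ttll10, has as its neighbour the epidermal hairpin dre-mir-429, which RefSeq also lists as dre-mir-429a. In these libraries miR-429a averaged 2476 ± 596 CPM and miR-7149 averaged 0.208 ± 0.345 CPM (SD over 25 libraries). The 2 were looked up after their values were seen. Likewise, within tmtopsb, miR-727 averaged 57.7 CPM and miR-728 averaged 1.32 CPM. Beside different opsin genes, and not beside each other, miR-726 and miR-729 averaged 5.89 and 0.712 CPM.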
